A study of Mus musculus with 32 samples.

Results

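Expression of autosomal genes was compared between the kidneys of males and those of females of the C57BL/6 strain, before the start of a cisplatin time course. The series holds 32 libraries, each from kidney of 1 wild-type mouse aged 6 to 8 weeks when acquired. The 8 libraries used come from 4 males and 4 females at Day 0, and the count table lists 50225 autosomal genes (chromosomes 1 to 19) of 54532 in all. Of these, 28822 had at least 1 count in the 8 libraries and 15514 passed the filter on low counts and were tested. Mice at Day 2 and Day 3, given 20 mg/kg of the nephrotoxic drug cisplatin, served as separate animals in which the same sex difference was measured. The study describes Day 0 mice as healthy, whereas the sample labels give the Day 0 females a cisplatin treatment and the Day 0 males none. If the labels were right, sex and treatment could not be told apart at Day 0. Of 21 p53 target and tubule injury genes, 15 were higher in every Day 2 female than in every Day 0 female, and 8 were so in males. The share of all genes that separate in this way was not computed. These counts are therefore not read as a result about the list or the label. Cdkn1a, a p53 target that encodes a cell cycle inhibitor and is named here after its values were seen, was measured at 7.54 to 19.2 counts scaled to library size (CPM) in Day 0 females and at 87.9 to 358 CPM in Day 2 females. Ccng1, a p53 target that encodes cyclin G1, was named in the same way and stood at 102 to 161 CPM in the first and 361 to 937 CPM in the second. The 2 genes of the list with the highest levels over the Day 0 libraries did not separate these females, with Clu, a secreted chaperone, at 432 ± 159 CPM at Day 0 and 324 ± 41.5 CPM at Day 2, and Krt8, a keratin, at 165 ± 57.1 CPM and 168 ± 46.8 CPM (mean ± SD, n = 4). Of 19 genes of the list tested between the sexes at Day 0, edgeR and DESeq2 called none. Limma voom with quality weights called 9, where it called 25.1% of all autosomal genes tested, and 3 had an unadjusted p under 0.05 in edgeR, as did 8.03% of all.

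The mouse kidney is sexually dimorphic mainly in its proximal tubule, the segment that reabsorbs filtered solutes and secretes organic anions and drugs. Testosterone, acting through the androgen receptor, raises the expression of many genes of tubular transport and of drug and steroid metabolism in males. Other genes of the same families are higher in females, and in rodents prolactin and growth hormone signalling also differ between the sexes. The families that carry these differences are cytochromes P450, which oxidise steroids, fatty acids and drugs, conjugating enzymes, and the organic ion transporters of the Slc22 and Slco families.

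The libraries differed in ways that sex does not describe. Total counts ranged from 16502107 to 35961325. Transcripts of the mitochondrial genome made up 24.0% of the counts of male mouse 4 and 19.7% of those of female mouse 4, against 4.49% to 10.7% in the others. Summed hepatocyte markers reached 17321 CPM in female mouse 2 and 278 to 842 CPM in the other 7 libraries, and adrenal cortex markers 436 CPM against 27.9 to 81.1 CPM. Female mouse 3 had the second highest hepatocyte sum (842 CPM), and its Alb, the gene of serum albumin, stood at 158 CPM, against 7212 CPM in female mouse 2 and 1.64 to 14.5 CPM in the other 6 libraries. Male mouse 3 and female mouse 3 also stood apart, at 85.1 and 137 on the first principal component of log2 CPM (50.7% of the variance), against -71.3 to 25.9 in the others. In these mice Gpx3 and Kap, abundant proximal tubule transcripts, took 14.9% and 14.2% of the counts, against 5.03% to 8.48%, and summed erythroid markers stood at 2235 and 2799 CPM, against 419 to 1367 CPM. Male mouse 1 and male mouse 2 were the closest pair, with a chi-square of 6.70 per gene between their counts, beyond sampling noise, against 76.4 to 677 for the other pairs. Summed adipocyte markers reached 3249 CPM in male mouse 4, against 616 to 1905 CPM elsewhere. Y-linked genes had 221 counts in female mouse 1, or 8.71% of the male mean CPM, and Xist had 242 counts in male mouse 4, or 8.56% of the female mean CPM. The other female libraries had 5 to 66 Y-linked counts and the other male libraries 0 to 50 Xist counts. Summed thick ascending limb markers were lowest in male mouse 4 and female mouse 4, at 908 and 1168 CPM, against 1684 to 3484 CPM elsewhere. Summed markers of proximal tubule segment 3 lay between 1515 and 3952 CPM in the males, and the females lay between 1083 and 1878 CPM. This sum is not independent of the sex differences below, since its list holds Atp11a, Slc7a13 and Cyp7b1. Of its 8 genes 5 were higher in males, with log2 fold changes from -0.68 to 5.17. The part of these differences in the sex differences below was not tested, other than by leaving out each library.

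At Day 0, 71 autosomal genes (0.458% of those tested) differed between male and female mice at an adjusted p under 0.05 (edgeR quasi-likelihood test, Benjamini-Hochberg adjustment over all 16042 genes tested). Of these, 37 genes (0.238%) were higher in males and 34 genes (0.219%) were higher in females. With the further threshold of an absolute log2 fold change over 1.5, there were 57 DEGs (0.367%), 27 higher in males (0.174%) and 30 higher in females (0.193%). In all 71 genes the 4 male and 4 female libraries did not overlap in CPM, as was so for 941 of the 15514 genes tested (6.07%). A total of 1246 genes had an unadjusted p under 0.05. Outside the autosomes the same fit called 1 gene, although Xist and the Y-linked genes differ between the sexes. A gene that was not called may therefore still differ, and the number called is not the number that differ. The adjusted p of the 71 genes lay between 0.0153 and 0.0486, so all were close to the threshold. Their folds ranged from 1.89 to 11.5 in the genes higher in males and from 2.37 to 38.3 in those higher in females. The 71 genes were spread over 18 of the 19 autosomes, and 69 of them are protein-coding. The other two are Gm30551, a lincRNA, and Gm16010, an antisense RNA whose reads cannot be told apart from those of the opposite strand where counting ignores strand. The p-values measure the spread between the 4 libraries of each sex, each taken as a separate mouse. In bulk kidney RNA fewer cells of a type and less RNA per cell cannot be told apart.

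The number of genes called rested on single libraries. Without male mouse 1, female mouse 2 or female mouse 3, no gene passed the edgeR test, with 801, 817 and 1130 genes at an unadjusted p under 0.05. Without both mice numbered 3, a choice made after seeing the data, none passed either. Leaving out male mouse 2, the library closest to male mouse 1, left 2 genes, male mouse 3 left 12 and female mouse 1 left 17, with 15 of the 71 among them. Without male mouse 4 there were 76 genes, with 54 of the 71 among them. Without female mouse 4 there were 80 genes, with 57 of the 71 among them. Since the sexes do not overlap in the 71 genes, leaving out a library cannot turn a sign. Over the 8 fits the median log2 fold change lay between 1.83 and 2.04 for the genes higher in males and between -2.55 and -2.25 for those higher in females. DESeq2 called all 71 genes, among 385, and limma voom with quality weights called all 71, among 3888. Over all autosomal genes tested, sex accounted for 0.172 of the squared distance between libraries (exact permutation test over 35 splits, p = 0.257). A share at least as large was thus reached in 0.257 of the splits, which does not show that the sexes are alike.

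**Figure D1:**
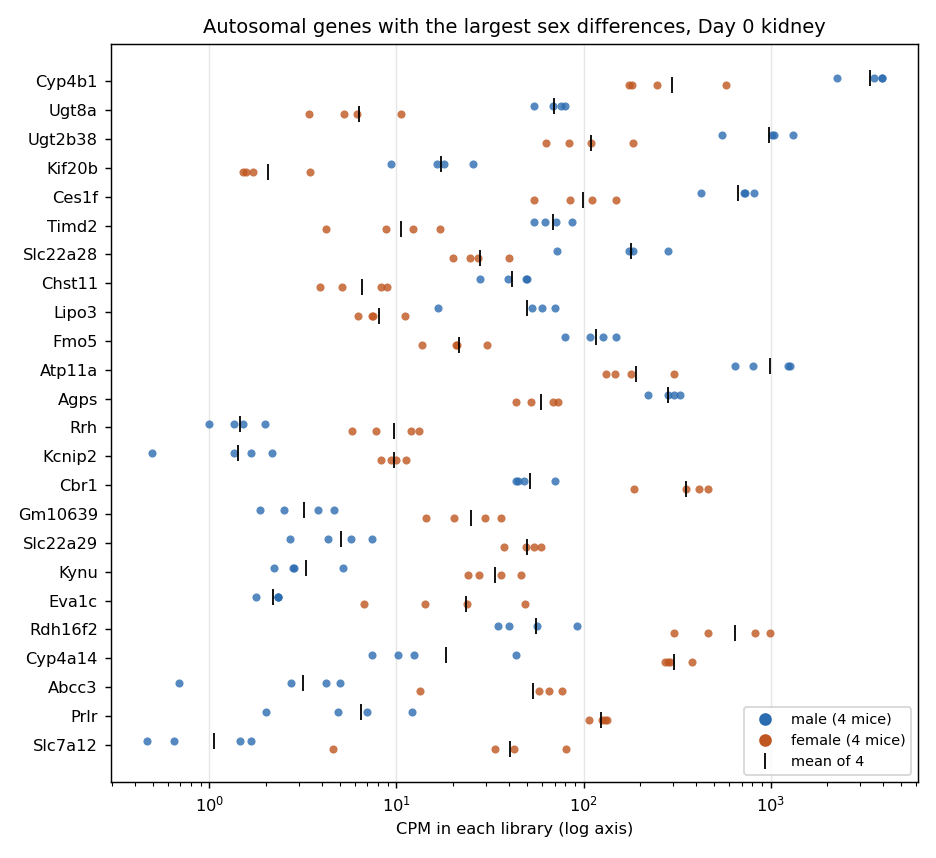
CPM of the 24 autosomal protein-coding DEGs with the largest log2 fold changes, 12 in each direction, in each of the 4 male (blue) and 4 female (orange) libraries at Day 0, on a log axis, with the mean of each group as a bar. The groups do not overlap in any of these genes, and their means are farthest apart for Slc7a12.

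Among the genes called, the largest differences in favour of males were those of Cyp4b1, Ugt8a and Ugt2b38, while genes that failed the test, such as Slc7a13, an amino acid transporter, had larger ones (log2 fold change 5.17, edgeR adjusted p = 0.114). Cyp4b1, a cytochrome P450 that oxidises fatty acids and xenobiotics (chr4:115624725-115647723, minus strand), was measured at 3926, 3572, 3925 and 2252 CPM in the 4 males and at 578, 183, 176 and 248 CPM in the 4 females. Male mouse 4 was the lowest male and female mouse 1 the highest female, and even these libraries were well apart. The log2 fold change of male against female was 3.53 ± 0.48 (SE), an 11.5-fold difference (edgeR adjusted p = 0.0230). Ugt2b38, which conjugates substrates with glucuronic acid, stood at 1017, 1038, 1312 and 551 CPM in males and at 184, 62.9, 83.3 and 110 CPM in females, a log2 fold change of 3.15 ± 0.42 (edgeR adjusted p = 0.0230). Ugt8a, a galactosyltransferase of the same family that makes galactosylceramide, stood at 75.8, 79.8, 69.0 and 54.4 CPM in males and at 10.6, 3.41, 5.23 and 6.12 CPM in females, a log2 fold change of 3.46 ± 0.35 (edgeR adjusted p = 0.0153). In both Ugt genes male mouse 4 was again the lowest male and female mouse 1 the highest female.

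Ces1f, a carboxylesterase that hydrolyses esters, was 6.75-fold higher in males, at 673 ± 173 CPM against 99.6 ± 40.2 CPM (mean ± SD, n = 4). Fmo5, a flavin-containing monooxygenase, stood at 79.3 to 150 CPM in males and 13.8 to 30.7 CPM in females. Hsd17b11, a 17-beta-hydroxysteroid dehydrogenase, stood at 315 to 530 CPM in males and 94.2 to 142 CPM in females. All of these are enzymes of drug or steroid metabolism, and none overlapped between the sexes. Agps, an enzyme of ether lipid synthesis in peroxisomes, was 4.79-fold higher in males with a small spread, at 284 ± 46.1 CPM against 59.4 ± 14.0 CPM. Chst11, a chondroitin sulfotransferase, was 6.36-fold higher, and Atp11a, a phospholipid flippase, 5.20-fold higher. Timd2, a receptor for ferritin, stood at 54.1 to 87.2 CPM in males and 4.19 to 17.1 CPM in females. Lipo3, a lipase family member, stood at 16.6 to 70.8 CPM in males and 6.27 to 11.1 CPM in females, with male mouse 4 the lowest male. Kif20b, a mitotic kinesin, had the lowest deposited FPKM of the 12 genes in both sexes, at 2.37 ± 0.890 in males and 0.282 ± 0.125 in females. Male mouse 4 was the lowest male in 28 of the 37 genes higher in males, and female mouse 1 the highest female in 20 of them.

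Among the genes called, the largest differences in favour of females were those of Slc7a12, Prlr, the lincRNA Gm30551 (log2 fold change -4.17) and Abcc3, while genes that failed the test, such as Slc22a27, an organic anion transporter, had larger ones than Slc7a12 (log2 fold change -5.54, edgeR adjusted p = 0.0895). Slc7a12, an amino acid transporter (chr3:14480697-14505830, plus strand), was measured at 1.67, 0.466, 0.646 and 1.46 CPM in males and at 42.6, 33.7, 80.4 and 4.56 CPM in females. Female mouse 4 was far below the other females but still above every male. The log2 fold change was -5.26 ± 0.85 (edgeR adjusted p = 0.0395). Prlr, the prolactin receptor (chr15:10177238-10349180, plus strand), was at 4.85, 2.02, 6.96 and 12.1 CPM in males and at 107, 133, 130 and 126 CPM in females. The females lay close together, and the log2 fold change was -4.26 ± 0.49 (edgeR adjusted p = 0.0191). Abcc3, an exporter of organic anions and glucuronides, was at 5.02, 2.74, 0.684 and 4.21 CPM in males and at 77.2, 65.6, 58.0 and 13.4 CPM in females, a log2 fold change of -4.09 ± 0.70 (edgeR adjusted p = 0.0485). Neither Slc7a12 nor Abcc3 was called with no filter on counts, at edgeR adjusted p of 0.139 and 0.160. Female mouse 4 was the lowest female here too, as in 22 of the 34 genes higher in females.

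Kynu, kynureninase of the tryptophan breakdown pathway, was at 2.79, 2.23, 2.85 and 5.21 CPM in males and at 24.2, 36.2, 27.5 and 46.2 CPM in females. The lowest female exceeded the highest male, and the log2 fold change was -3.36 ± 0.34 (edgeR adjusted p = 0.0153). Rdh16f2, a retinol dehydrogenase family member, stood at 34.9 to 92.3 CPM in males and 305 to 993 CPM in females, and Cbr1, a carbonyl reductase, at 43.5 to 70.2 CPM and 186 to 464 CPM. Kcnip2, which binds potassium channels, stood at 1.42 ± 0.702 CPM in males and 9.68 ± 1.25 CPM in females. Rrh, an opsin, stood at 1.46 ± 0.408 CPM and 9.71 ± 3.51 CPM. Eva1c had a wide spread among females, at 23.4 ± 18.4 CPM against 2.19 ± 0.272 CPM in males, and still did not overlap.

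**Figure D2:**
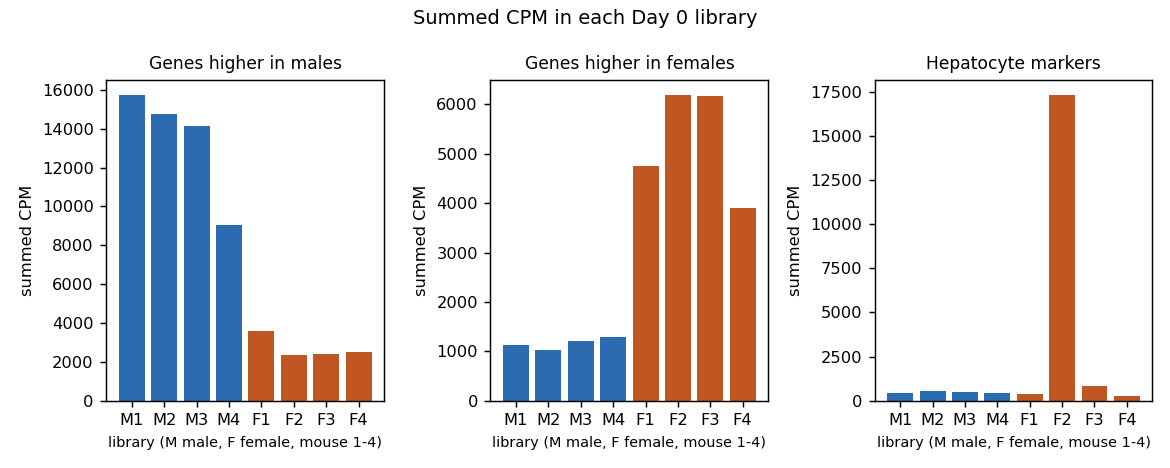
Summed CPM in each Day 0 library (M, male; F, female; mouse 1 to 4) of the 37 autosomal genes called higher in males, the 34 called higher in females and the hepatocyte marker list. The genes higher in males summed to 9038 CPM in male mouse 4 and 14147 to 15738 CPM in the other males, and hepatocyte markers summed to 17321 CPM in female mouse 2 and 842 CPM in female mouse 3, the next highest.

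Neighbouring genes of the same family differed in opposite directions at 2 loci (GRCm38 coordinates as in the count table). On chromosome 4, Cyp4b1 lies 128.6 kb from Cyp4a14 (chr4:115486200-115496142, minus strand), another fatty acid hydroxylase. Cyp4a14 was at 7.42, 12.5, 10.1 and 43.7 CPM in males and at 272, 288, 380 and 282 CPM in females, a log2 fold change of -4.05 ± 0.58 (edgeR adjusted p = 0.0284). Male mouse 4 was high among males, and was still below every female. On chromosome 19, Slc22a28 (chr19:8062209-8131982) and Slc22a29 (chr19:8160165-8218900), organic anion transporter genes on the minus strand, lie 28.2 kb apart. Slc22a28 was at 185, 174, 282 and 72.1 CPM in males and at 39.96, 19.96, 27.3 and 24.7 CPM in females, a log2 fold change of 2.67 ± 0.41 (edgeR adjusted p = 0.0330). Slc22a29 was at 4.30, 2.69, 5.74 and 7.37 CPM in males and at 37.4, 54.2, 59.1 and 49.0 CPM in females, a log2 fold change of -3.31 ± 0.33 (edgeR adjusted p = 0.0153). The genes are paralogs, and how reads from stretches they share were divided between them is uncertain.

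The promoters of this pair are shown because the genes are paralogs with opposite sex differences. Each runs from 250 bases before to 50 bases after the start of the gene (RefSeq, GRCm38.p6), 5′ to 3′ on the minus strand, and capitals mark runs of at least 12 bases present in both.
Slc22a28 (chr19:8131933-8132232): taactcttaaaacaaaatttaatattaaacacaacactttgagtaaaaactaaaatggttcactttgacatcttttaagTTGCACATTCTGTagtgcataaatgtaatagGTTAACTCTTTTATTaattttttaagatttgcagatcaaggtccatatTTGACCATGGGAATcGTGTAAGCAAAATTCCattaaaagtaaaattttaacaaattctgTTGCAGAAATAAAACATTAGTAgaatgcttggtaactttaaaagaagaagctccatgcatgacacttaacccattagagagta
Slc22a29 (chr19:8218851-8219150): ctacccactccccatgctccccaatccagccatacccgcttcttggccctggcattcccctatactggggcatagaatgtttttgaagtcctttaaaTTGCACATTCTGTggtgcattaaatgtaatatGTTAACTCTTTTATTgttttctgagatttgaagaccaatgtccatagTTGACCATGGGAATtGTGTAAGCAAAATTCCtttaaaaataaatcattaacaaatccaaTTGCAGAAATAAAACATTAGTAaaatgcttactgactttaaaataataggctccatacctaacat
The capitals cover 80 bases of each promoter, in the same order in both. In a global alignment 217 of 281 aligned bases were identical, or 77.2%.

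The promoter of Cyp4b1 is shown because its FPKM was the highest of the 12 genes with the largest differences in males, at 1439 ± 333 in males and 125 ± 78.8 in females, and capitals mark matches to the motifs searched (RefSeq, GRCm38.p6, minus strand, 5′ to 3′).
Cyp4b1 (chr4:115647672-115647971): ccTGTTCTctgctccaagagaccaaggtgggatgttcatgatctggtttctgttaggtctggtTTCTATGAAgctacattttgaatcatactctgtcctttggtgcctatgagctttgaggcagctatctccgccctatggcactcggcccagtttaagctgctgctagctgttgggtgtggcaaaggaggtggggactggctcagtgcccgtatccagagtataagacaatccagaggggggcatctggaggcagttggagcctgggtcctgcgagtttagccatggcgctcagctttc
It holds 1 match to AGAACA, a hexamer bound by steroid receptors such as the androgen receptor, read on the opposite strand as TGTTCT, and 1 match to TTCNNNGAA, the motif of STAT factors. Motifs were searched on both strands in the 71 promoters listed for 54 of the 71 called genes. AGAACA was present in 12.7% of these promoters and in 18.955% of all 31396 autosomal promoters in the table, with 6.06% for genes higher in males and 18.4% for genes higher in females. TTCNNNGAA was present in 12.7% of the promoters of called genes and in 8.35% of all. The palindromic steroid receptor element, which holds AGAACA and its inverted copy, was present in 3 of all promoters, and 1 of these belongs to Sgk1, a kinase gene called higher in females and named here after its values were seen. The palindromic motif of HNF1 factors was present in 3 of all promoters and in 0 of those of called genes. A match is a description of the letters and not a binding site.

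The counts by family are read against the 0.238% of all autosomal genes tested that were called higher in males and the 0.219% called higher in females. Over the same 15514 genes DESeq2 called 2.38%, limma voom 25.1%, and 8.03% had an unadjusted p under 0.05 in edgeR, and the counts by these rules are read against those shares. The lists were chosen with results known, so a share above these is no finding about a family. Of 48 cytochrome P450 genes tested, 1 was higher in males (Cyp4b1) and 2 were higher in females (Cyp4a14 and Cyp2d26), with a median log2 fold change of -0.15, against -0.0017 over all autosomal genes tested. Cyp2d26 stood at 122 to 194 CPM in males and 454 to 716 CPM in females, and was not called in 1 fit over the 8 groups of sex and day (edgeR adjusted p = 0.132). In this family 19 genes had an unadjusted p under 0.05, DESeq2 called 12 and limma voom called 19. Of 12 UDP-glucuronosyltransferase genes, 2 were higher in males (Ugt8a and Ugt2b38), with a median of 1.26, while DESeq2 called 4 and limma voom 7. Of 23 glutathione S-transferase genes, 2 were higher in females, Gsta2 and Gsta4, with a median of -0.83, while DESeq2 called 2 and limma voom 13. Gsta2 was at 128 ± 44.8 CPM in males and 614 ± 193 CPM in females, and Gsta4 at 34.2 ± 9.32 CPM and 172 ± 72.3 CPM. They lie 121.7 kb apart on chromosome 9 with Gm10639 between them, which was also called higher in females, and Gsta1, which was not called (log2 fold change -1.69, edgeR adjusted p = 0.449). Of 27 hydroxysteroid and aldo-keto reductase genes, Hsd17b11 was higher in males and Hsd17b14 in females, while DESeq2 called 8 and limma voom 16. Of 9 carboxylesterase genes, Ces1f was called, while DESeq2 called 3 and limma voom 4.

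Among transporters, 1 of 23 Slc22 genes was higher in each sex. In the Slc22 family 8 genes had an unadjusted p under 0.05, DESeq2 called 7 and limma voom 10. Of 8 Slco genes, Slco3a1 was higher in males at 202 ± 66.3 CPM against 46.6 ± 13.8 CPM, and DESeq2 and limma voom each called 3. Of 45 amino acid transporter genes 1 was called (Slc7a12), against 4 by DESeq2 and 11 by limma voom, the last near its 25.1% of all genes. Of 33 ABC transporter genes 1 was called (Abcc3), against 2 and 12. Of 31 sugar and phosphate transporter genes none passed the edgeR test, with 8 at an unadjusted p under 0.05, while DESeq2 called 3 and limma voom 11. The closest was Slc17a2, a phosphate transporter family member, with 9, 3, 0 and 0 counts in males and 324, 513, 297 and 95 counts in females (edgeR adjusted p = 0.0537). The next was Slc5a8, a monocarboxylate transporter, at 114 to 248 CPM in males and 50.3 to 94.2 CPM in females (edgeR adjusted p = 0.0610).

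Odc1, ornithine decarboxylase and the rate-limiting enzyme of polyamine synthesis, was 3.39-fold higher in males, at 2092, 1804, 1573 and 1191 CPM against 565, 362, 448 and 589 CPM in females. Oat, ornithine aminotransferase, which draws on the same substrate, was 2.76-fold higher in females, at 382, 404, 345 and 374 CPM against 143, 137, 126 and 139 CPM in males. The spread of Oat within a sex was small beside this difference, at 7.09 CPM in males and 24.7 CPM in females (SD). These were the 2 called of 20 polyamine and arginine genes, against 2 by DESeq2 and 6 by limma voom. Kynu was the 1 called of 18 kynurenine and NAD genes, against 2 and 7. Of 36 fatty acid oxidation genes, Cd36, a fatty acid uptake receptor, was higher in males at 392 ± 119 CPM against 97.7 ± 29.3 CPM. Acot3, a peroxisomal acyl-CoA thioesterase, and Hao2, a peroxisomal hydroxy acid oxidase, were higher in females, at 27.5 ± 4.81 against 7.25 ± 1.24 CPM and at 567 ± 92.2 against 164 ± 27.4 CPM. Hao2 was not called in 1 fit over the 8 groups (edgeR adjusted p = 0.0791). In this list 14 genes had an unadjusted p under 0.05, DESeq2 called 7 and limma voom 19. Prlr was the 1 called of 31 hormone receptor and growth hormone genes, against 1 by DESeq2 and 10 by limma voom. No gene passed the edgeR test among 6 sulfotransferase, 4 medium-chain acyl-CoA synthetase, 11 Serpina and 24 complement genes. In the same order, 1, 3, 4 and 3 of these had an unadjusted p under 0.05, DESeq2 called 0, 2, 2 and 0, and limma voom called 3, 4, 1 and 6. None of 21 major urinary protein genes passed the filter on counts. Acsm2, which activates medium-chain fatty acids, did not overlap between the sexes, at 3645 ± 413 CPM in males and 1218 ± 469 CPM in females (edgeR adjusted p = 0.0974). Acsm1, of the same family, did not overlap in the opposite direction, at 141 ± 37.1 CPM in males and 287 ± 81.0 CPM in females (edgeR adjusted p = 0.269). Cd55, a regulator of complement activation, stood at 11.9 to 17.9 CPM in males and 7.02 to 11.1 CPM in females (edgeR adjusted p = 0.312). In Sult5a1, Serpina10 and Serpina3b the sexes overlapped. Sult5a1, a sulfotransferase, stood at 1.60 to 2.81 CPM in males and 2.27 to 8.62 CPM in females (edgeR adjusted p = 0.647). Serpina10, a protease inhibitor also made in liver, stood at 0.502 to 1.71 CPM in males and 0.587 to 23.6 CPM in females, the highest being female mouse 2 (edgeR adjusted p = 0.328). Serpina3b stood at 0.335 to 3.74 CPM in males and 0 to 0.419 CPM in females (edgeR adjusted p = 0.374).

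**Figure D3:**
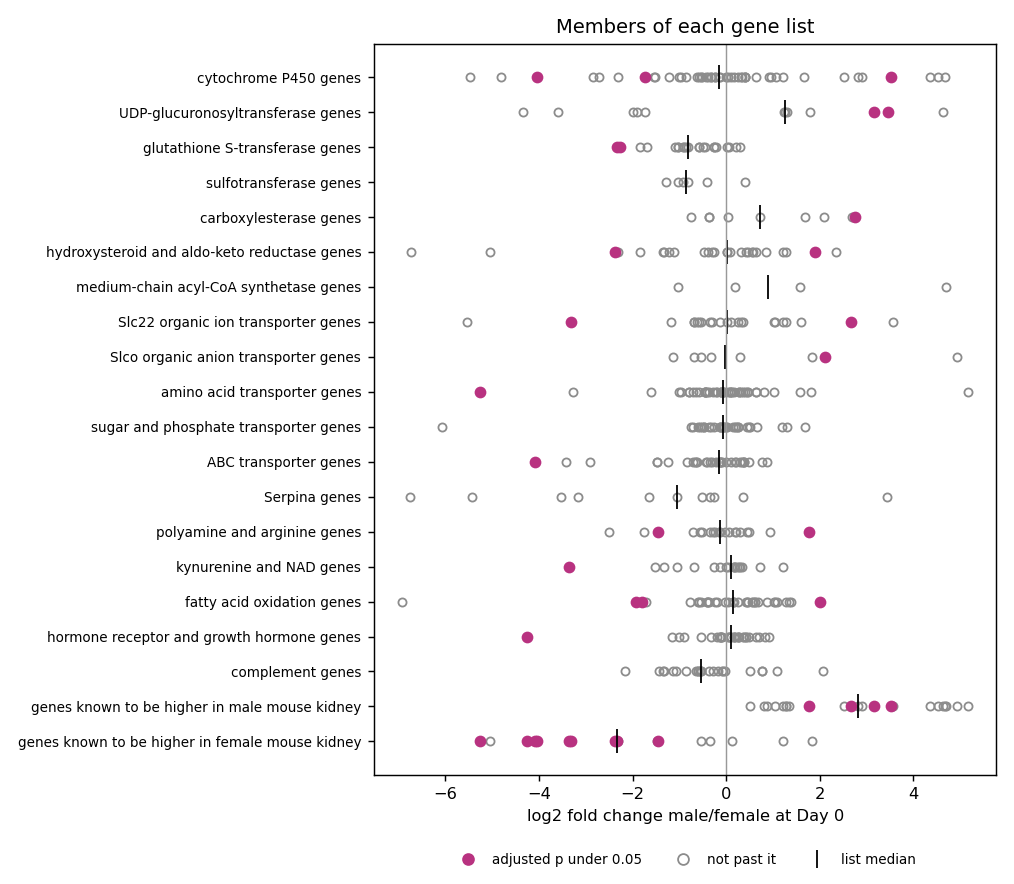
Log2 fold change of male against female at Day 0 for every tested member of each gene list, 1 row per list, with genes at an adjusted p under 0.05 filled, the others open, and the list median as a bar. Filled members lie on both sides of 0 in the cytochrome P450, hydroxysteroid and aldo-keto reductase, Slc22, polyamine and fatty acid lists.

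In 2 lists written from earlier knowledge of the mouse kidney, with results of these data also known, counts depended on the test used. All 23 genes known to be higher in male kidney had a positive log2 fold change, with a median of 2.81, and 14 of them did not overlap between the sexes, against 3.21% of all genes tested in that direction. In the edgeR test 4 were called (Cyp4b1, Ugt2b38, Slc22a28 and Odc1), where 0.238% of all genes tested were called in that direction, while DESeq2 called 15, where it called 1.42% of all genes in that direction, and limma voom 20, where it called 12.6%. Of 17 genes known to be higher in females, 14 had a negative log2 fold change, with a median over all 17 of -2.33. In 11 of them females were above males without overlap, against 2.86% of all genes tested. In the edgeR test 9 were called, where 0.219% of all genes tested were called in that direction, and DESeq2 and limma voom each called 12, where they called 0.954% and 12.5%.

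Slco1a1 and Cyp7b1 show how a large difference failed the edgeR test. In the same libraries DESeq2 called both (adjusted p = 0.0223 and 0.0162), as did limma voom (adjusted p = 0.0138 and 0.0294). Slco1a1, an organic anion transporter, was at 463, 398, 357 and 188 CPM in males and at 32.4, 8.16, 0 and 4.95 CPM in females, and the females ranged from 0 to 967 counts. The groups did not overlap, and the log2 fold change of 4.94 ± 1.24 had an edgeR adjusted p of 0.202. Cyp7b1, an oxysterol hydroxylase, was at 230, 266, 238 and 8.71 CPM in males and at 24.5, 9.24, 0.932 and 1.57 CPM in females (edgeR adjusted p = 0.269). Male mouse 4 fell below 2 of the 4 females. Female mouse 1 had the highest female value of both genes, at 9.23% and 13.2% of the male mean, beside its Y-linked CPM at 8.71% of the male mean, and the part of the one in the other was not tested. Over the 37 genes called higher in males its median was 31.4% of the male mean, against 24.1% to 25.5% in the other females.

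In the mice at Day 2 and Day 3, none of which entered the Day 0 comparison, 70 of the 71 genes had the sign of Day 0 on each day. At Day 2, 37 of the 71 were called in the same direction, where 1.46% of autosomal genes tested were called in either direction. At Day 3, 53 of the 71 were called in the same direction, where 21.1% were called. Of the 37 genes higher in males, 21 were called at Day 2 (background 0.872%) and 33 at Day 3 (background 10.5%). Of the 34 higher in females, 16 were called at Day 2 (background 0.585%) and 20 at Day 3 (background 10.6%). The median log2 fold change was 1.94 at Day 0, 1.35 at Day 2 and 1.28 at Day 3 for the first, and -2.35, -1.39 and -1.02 for the second. The genes were chosen by their Day 0 values, which alone tends to make those the largest, and the difference between days was not tested.

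Slco1a1 and Cyp7b1, which failed the edgeR test at Day 0 but not DESeq2 or limma voom, were called by edgeR on both later days. Slco1a1 ranged from 48.4 to 209 CPM in Day 2 males, with 0 to 2 counts in Day 2 females. Cyp7b1 ranged from 67.5 to 188 CPM in Day 2 males and from 1.79 to 2.23 CPM in Day 2 females. Kynu was called on neither day, with 13.1 ± 5.46 CPM in males and 21.3 ± 7.52 CPM in females at Day 2. Cyp4a14 was also called on neither day, with log2 fold changes of -2.37 at Day 2 and -1.85 at Day 3. Gadd45g, a stress-induced growth arrest gene named here after its values were seen, was the 1 gene with the opposite sign, at a log2 fold change of -2.11 at Day 0, 0.14 at Day 2 and 0.15 at Day 3, and edgeR did not call it on either later day.

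**Figure D4:**
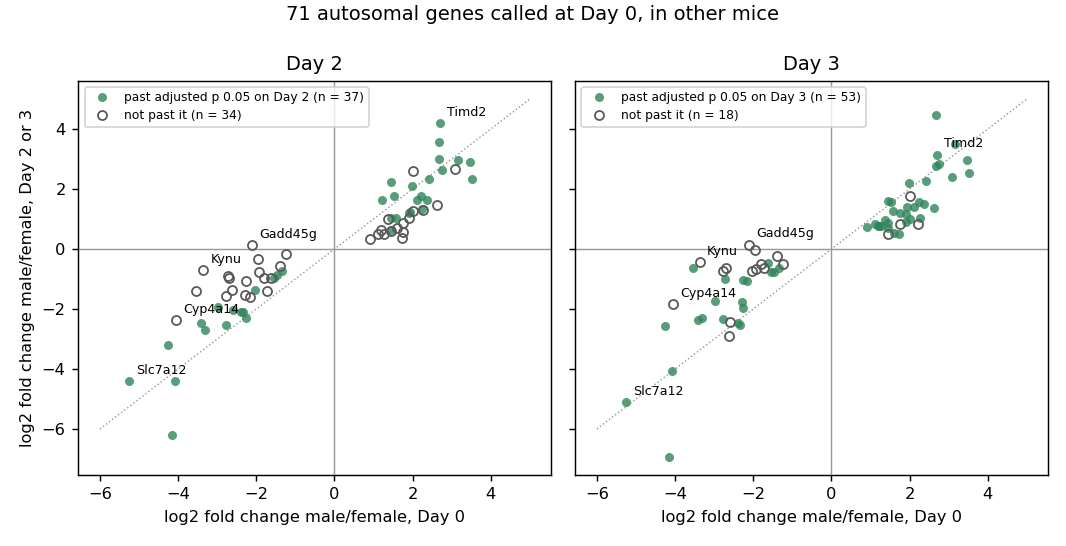
Log2 fold change of male against female at Day 2 (left) and Day 3 (right) plotted against that at Day 0 for the 71 autosomal genes called at Day 0, with genes past an adjusted p of 0.05 on that day filled and the others open. The dotted line marks equal values. Of the 71 genes 70 lie in the quadrants of equal sign on each day, and Gadd45g lies outside them.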

How the data were processed

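Kidney RNA of single mice was sequenced by the authors as paired-end reads of 150 bp and aligned to GRCm38. The deposited tables hold unnormalized counts and FPKM for each gene and library, and only the counts were tested. The submitters' processing notes name HTSeq and DESeq2 without versions, and a different build, GRCm39. Of the gene IDs, 54409 were found in GENCODE M21 (GRCm38), 98.3% with the same start and end, so coordinates are GRCm38. The strand setting of the counting is not given in the sources used here. Samples were grouped by sex and day from the labels.

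Day 0 males and females were compared with edgeR 4.0.16 in R 4.3.3 (TMM factors, filterByExpr, robust quasi-likelihood test). The thresholds for DEGs were 0.05 for the adjusted p and 1.5 for the size of the log2 fold change, after those of the study, which names no base for its log. CPM use TMM factors over the 8 libraries, and those of Day 2 and Day 3 use factors over all 32. Distances used log2 CPM with a prior count of 2. Alternatives used DESeq2 1.42.0, limma 3.58.1 and each library left out. Promoters were aligned with Biopython 1.88. The procedure was tested on simulated data. Counts differed between every pair of libraries beyond sampling noise, least between male mice 1 and 2, which were kept as 2 samples. A difference beyond sampling noise cannot show that 2 libraries come from separate animals. If these 2 did not, the spread between males would be understated. Day 5 was not analysed here.

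Members and gene lists were chosen with earlier results of these data known. Genes named are the 12 largest and 12 smallest log2 fold changes among protein-coding DEGs without overlap, up to 4 called genes of each list (or the 2 with the smallest p where none was called), and Ppard, Kynu, Slco1a1 and Cyp7b1. The rule also covered the 2 most abundant genes of each marker list used as a check, most of which are given only within sums. Slc7a13, Slc22a27 and Gsta1 were named after their values were seen. Of the marker lists used as checks, summed levels are given where a library stands apart or the list holds a called gene.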

Additional observations from a re-analysis of the deposited data

Results flagged for a closer look

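In groups of 4 mice, a library was flagged where its gap to the nearest other library, divided by the range of the group, exceeded Dixon's critical value, which chance does in about 1 in 20 groups. Of 132 groups tested, 18 were flagged. Among genes higher in males, or with larger values there, these were Kif20b in female mouse 1 (ratio 0.896), Slc5a8 in male mouse 4 (0.879) and Cyp7b1 in male mouse 4 (0.862). Among the others these were Cyp4a14 in male mouse 4 (0.860) and in female mouse 3 (0.851), Eva1c in male mouse 1 (0.963), Cbr1 in male mouse 4 (0.8293), Sult1a1 in female mouse 2 (0.924) and Cfi in female mouse 2 (0.971). Sult1a1, a sulfotransferase, was at 89.6 CPM in female mouse 2 and 20.9 to 26.1 CPM in the other females, and Cfi, complement factor I, at 48.8 CPM against 6.82 to 8.03 CPM. Both are also made in liver, and female mouse 2 is the library with 17321 CPM of hepatocyte markers.

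Of the summed marker lists, female mouse 2 was flagged for hepatocyte (0.967), adrenal cortex (0.928) and adrenal medulla markers (0.929). Male mouse 4 was flagged for adrenal cortex (0.833), adrenal medulla (0.877) and adipocyte markers (0.885). Male mouse 3 was flagged for erythroid markers (0.950), at 2235 CPM against 437 to 528 CPM in the other males, while female mouse 3 was higher still, at 2799 CPM against 419 to 1367 CPM in the other females. Female mouse 4 was flagged for proximal tubule segment 1 and 2 markers (0.920), at 14017 CPM against 7917 to 8403 CPM, and for immediate early genes (0.882), at 1263 CPM against 245 to 365 CPM. The part of these markers in the sex differences was not tested. Of 19 hepatocyte markers tested, edgeR, DESeq2 and limma voom called none between the sexes, and 13 had an unadjusted p under 0.05 in edgeR, where 8.03% of all autosomal genes tested had.

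Outside the autosomes, female mouse 1 had 221 Y-linked counts, against 5 to 66 in the other females, and male mouse 4 had 242 Xist counts, against 0 to 50 in the other males.

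Ppard, a nuclear receptor that regulates fatty acid oxidation, was higher in every male than in every female at Day 0 and lower in every male than in every female at Day 3. On CPM scaled over all 32 libraries it was at 86.1 ± 16.2 in males and 42.0 ± 5.29 in females at Day 0, and at 15.7 ± 0.965 and 25.3 ± 3.45 at Day 3 (mean ± SD, n = 4). The log2 fold change was 1.02 at Day 0 (edgeR adjusted p = 0.0710) and -0.71 at Day 3 (edgeR adjusted p = 0.00183). At Day 0 it was called in 4 of 8 alternative fits, among them DESeq2 (adjusted p = 0.000360) and limma voom (adjusted p = 0.00175). The difference between the days was not tested.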

How the results depend on the processing

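The number of genes called moved with the method and with single libraries. The 57 DEGs became 209 with the DESeq2 Wald test, 466 with limma voom and quality weights, and 310 in 1 fit over 8 groups. The 71 genes at an adjusted p under 0.05 became 385, 3888 and 564 in the same order. Leaving out each mouse in turn gave 0 to 68 DEGs and 0 to 80 genes at an adjusted p under 0.05. The balance of the sexes also moved. Genes called higher in males and in females numbered 37 and 34 in the main fit. These became 34 and 46 without female mouse 4, 48 and 28 without male mouse 4, and 127 and 78 with the replicate number as a block. Leaving out both mice numbered 3, chosen after seeing the data, gave 0 and 0, with 1445 genes at an unadjusted p under 0.05, and leaving out both mice numbered 4, also chosen then, gave 78 and 107. Of the 71 genes, 66 were called with no filter on counts, 67 in 1 fit over 8 groups and all 71 with DESeq2 size factors, and 9 lost their call in at least 1 alternative fit of all 8 libraries. The DEGs called the same way at Day 2 were 31, and 48 with DESeq2 and 47 with limma voom. Those called the same way at Day 3 were 42, and 27 in 1 fit over 8 groups. The cause of these shifts was not tested, other than that fewer mice enter where libraries are left out. The share of squared distance stayed between 0.156 and 0.261. None of the results recomputed here changed direction under these alternatives, which for genes without overlap is fixed where libraries are left out.

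Male and female mice share replicate numbers. The deviations of same-numbered mice from the mean of their sex had correlations of 0.33, -0.10, 0.49 and 0.55. Between mice of unlike number these ran from -0.57 (male mouse 3 with female mouse 4) to 0.30 (male mouse 2 with female mouse 1). The labels do not say what the numbers stand for, and the main fit did not take them as pairs. A batch shared by mice of the same number was not tested. With the replicate number as a block there were 116 DEGs and 205 genes at an adjusted p under 0.05, with 69 of the 71 among them. The 2 genes lost were Slc7a12 and Abcc3, at edgeR adjusted p of 0.0526 and 0.0504.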
